A study of Mus musculus with 16 samples.

Results

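ATP-binding cassette (ABC) transporters are membrane proteins that spend ATP to move bile salts, lipids, drugs and conjugates across a membrane. They were followed in whole mouse liver through their own probes on Agilent arrays. The genes were chosen by name, as all probes that the array design calls Abca to Abcg with a member number, which gave 50 genes read by 68 probes. For each gene the probe with the highest mean signal stood for the gene, and 43 of the 50 genes, among 24357 genes tested in all, had a probe well above background on at least 3 arrays.

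Livers came from male BALB/c mice, an inbred strain, either wild type (WT) or without the Lcn2 gene (Lcn2-/-). The mice were 6 to 8 weeks old when dosing began. Lcn2 encodes lipocalin 2, a secreted protein that binds iron-carrying siderophores. Loss of Lcn2 was germline, so not limited to 1 cell type, in a line of mixed 129/Ola and C57BL/6 origin that was bred into BALB/c. CCl4, a solvent that becomes a reactive radical through cytochrome P450 of the hepatocyte, with fibrosis after repeated doses, was diluted in corn oil and injected into the abdomen at 0.5 ml/kg, 2 times a week over 4 weeks, with the last dose 48 h before the liver was collected. Controls received corn oil alone. There were 4 arrays of WT control, 5 of WT CCl4, 3 of Lcn2-/- control and 4 of Lcn2-/- CCl4. The labels number these replicates without naming the animal, so the p-values measure the spread between these samples.

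Hepatocytes carry ABC transporters on 2 faces. On the canalicular face, towards bile, Abcb11 pumps bile salts, Abcb4 flips phosphatidylcholine, Abcg5 and Abcg8 join as subunits of a pump for sterols, and Abcc2, Abcb1a, Abcb1b and Abcg2 pump conjugates and foreign compounds. On the basolateral face, towards blood, Abcc3, Abcc4 and their relatives return conjugates and bile salts to the circulation. Abca1 and Abcg1 load cholesterol on lipoproteins, Abcd2 and Abcd3 import acyl-CoA into peroxisomes, and Abce1 and the Abcf members act in translation and carry nothing across a membrane.

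A single 60-base probe stood for each gene, so the sequence that was read is shown for the genes whose response to CCl4 passed the test, with Abcb1b as the close relative of Abcb1a. The first 30 bases of each probe are given 5′ to 3′, from the array files.
Abcb1a: actcagacatgggcacctgagttcagatcc
Abcb1b: tccaggctggagcaaagcgctcatgagctg
Abcg2: cctggcttgtatgattattatcttcctcac
Abcg8: acacggtggcaaagacaaatccagttgtct
Abcc3: aacagagaccctgtactggtgctgtctgag
Abcc4: gccagtaaatgatgtagattcgtcctttat
Abcc5: gtagaagttttttgtactgtaaagagacct
Abcc8: agcgtgccgccccgcacctcacttgcttgc
Abcd2: caaggaaaatgaagtatagctccggctatc
Abcg4: tgtatctgccccaggttcttctcattacac
Abcg4, second probe: tcttctcattacacagagaccagttgtatt
On the mm9 build used by the files, the Abcb1a probe lay at chr5:8748075-8748134, the Abcb1b probe at chr5:8865925-8865984 and the Abcb4 probe at chr5:8959108-8959167, all on the plus strand, so 3 canalicular genes stand side by side. The Abcb1a and Abcb1b probes share no run longer than 7 of their 60 bases. The Abcg2 probe lay at chr6:58642312-58642371 (plus strand), Abcg8 at chr17:85098745-85098804 (plus), Abcc3 at chr11:94204612-94204671 (minus), Abcc4 at chr14:118882104-118882163 (minus), Abcc5 at chr16:20331568-20331627 (minus), Abcc8 at chr7:53359921-53359980 (minus), Abcd2 at chr15:90976565-90976624 (minus) and Abcg4 at chr9:44081302-44081361 (minus). The second Abcg4 probe begins 16 bases further along and shares 44 bases with the first, so the pair are not independent readings. The position of the probes within the transcripts was not analysed here.

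The probe of the deleted gene separated the genotypes. The Lcn2 probe read 13.79 to 17.57 on the WT arrays and 10.47 to 12.25 on the Lcn2-/- arrays (log2 of the quantile-normalized signal, the scale of all levels here), with no overlap between genotypes, and it was still well above background on all 7 Lcn2-/- arrays. The share of spots well above background ran from 51.6% to 60.9% per array. Hepatocyte markers read alike in all groups, with summed levels of 21.17 to 21.43 and 0 of 8 past the test in either genotype, while 7 of 8 stellate cell and myofibroblast markers rose with CCl4 in each genotype, with summed levels of 14.23 to 15.77 in WT control, 16.93 to 17.77 in WT CCl4, 13.8 to 14.01 in Lcn2-/- control and 16.39 to 16.98 in Lcn2-/- CCl4. Of the other lists, macrophage markers rose in both genotypes (5 of 10 in each), as did 1 of 6 cholangiocyte and 1 of 6 endothelial markers, and 1 macrophage and 1 endothelial marker fell in WT. Between the controls, 1 of 10 macrophage markers was called lower in Lcn2-/- than in WT (10%, against 0.53% of all genes). Of these 10, 8 lay below 0 and 2 above. In WT 2 of 5 neutrophil markers passed higher, and 2 of 4 lymphocyte, 1 of 2 erythroid and the 1 adipose marker tested passed lower. In Lcn2-/- 0 of these lists were called, and the difference between genotypes was not called for them. The adipose marker read 5.52 to 6.49 in WT control and 3.85 to 4.04 in WT CCl4. Levels so low leave the size of its fall uncertain, and nothing is drawn from it. The part of these cells in the ABC values was not tested. In whole liver, fewer cells of a type and less RNA per cell cannot be told apart. All 7 control arrays and WT CCl4 1 shared a slide, and the other 8 CCl4 arrays shared a second slide with no control, so slide and treatment can be told apart only through WT CCl4 1.

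With CCl4, ABC genes passed the test in both directions. In WT, 9 of the 43 genes tested passed the test (adjusted p under 0.05 from limma), which is 20.9% of the members against 16.8% of all genes tested. Of these, 5 were higher, against 8.01% of all genes, and 4 were lower, against 8.8% of all genes. In Lcn2-/-, 5 members passed, 11.6% of those tested against 12.2% of all genes, with 3 higher, against 6.57%, and 2 lower, against 5.61%. All 5 genes called in Lcn2-/- were also called in WT with the same sign; the comparisons share no arrays but share the estimate of spread. The ABC genes were therefore called about as often as genes at large. Their median difference was 0.01 in WT and 0.11 in Lcn2-/- on the log2 scale, against -0.03 and -0.02 for all genes, and 30 of 43 genes in WT and 32 of 43 in Lcn2-/- differed by less than 0.5. The Lcn2-/- count of 5 became 3 without Lcn2-/- control 1 or Lcn2-/- CCl4 3, 2 without Lcn2-/- control 2, and 17 with the arrays weighted by their quality, where the share of all genes called was 28.6%. Abcg4, counted in both genotypes, was kept by the filter only through its CCl4 arrays and so had to differ, and without it the counts are 8 and 4.

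**Figure D1:**
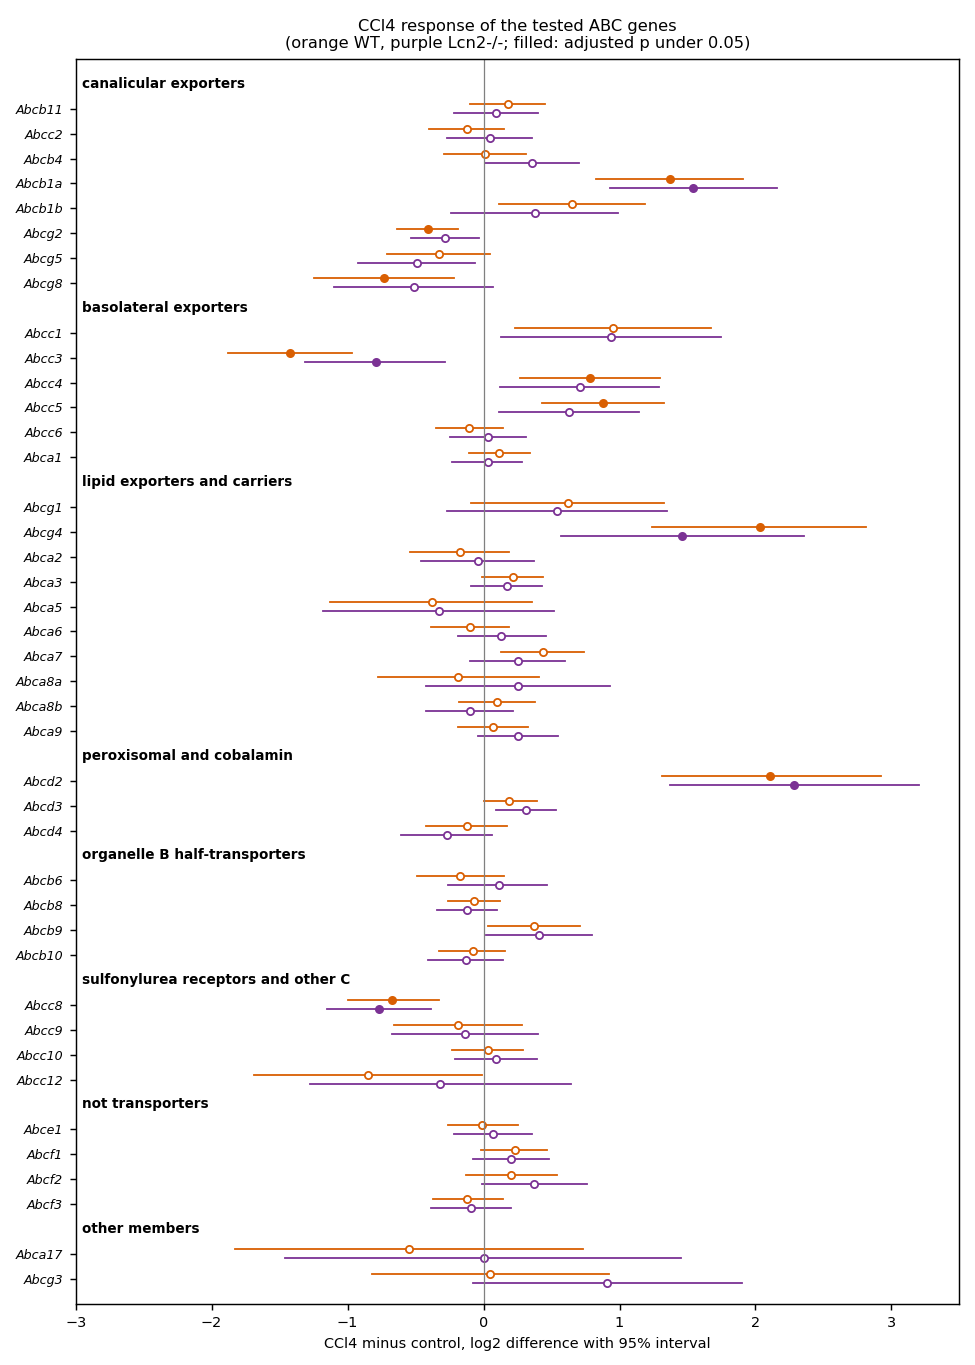
The CCl4 response of the ABC genes tested and reported here, as the difference in log2 normalized signal between CCl4 and control, with 1 row per gene and 1 mark per genotype, and bars for the 95% confidence interval. Most genes sit close to 0, Abcd2 and Abcb1a lie far to the right, Abcg4 does too but at a position that is not exact because 6 of its 7 control values are not well above background, and Abcc3 in WT lies farthest to the left at -1.42.

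Of 8 canalicular exporters tested, 1 rose and 2 fell in WT (37.5%, against 16.8% of all genes called), and 1 rose and 0 fell in Lcn2-/- (12.5%, against 12.2%). These shares rest on few genes and only describe the list. The gene that rose was Abcb1a, 1 of a pair of mouse genes for P-glycoprotein, which pumps hydrophobic drugs out of cells. Its levels were 8.72, 9.01, 9.9 and 8.72 on the WT control arrays and 10.64, 10.29, 9.9, 10.65 and 10.81 on the WT CCl4 arrays. They were 8.99, 9.46 and 9.31 in Lcn2-/- control and 10.84, 10.96, 10.36 and 11.03 in Lcn2-/- CCl4. Every CCl4 array lay above every control array of its genotype, although WT control 3 came within rounding of the lowest WT CCl4 array. The rise was 2.58-fold in WT (difference 1.37 ± 0.251 SE, adjusted p = 0.00178, limma) and 2.91-fold in Lcn2-/- (1.54 ± 0.286, adjusted p = 0.00285). The exact two-sided permutation test over samples gave p = 0.00794 in WT and 0.0286 in Lcn2-/-, the smallest p that these group sizes allow. Abcb1b, the second P-glycoprotein gene, read 8.69, 7.8, 9.11 and 7.93 in WT control and 9.18, 9.36, 8.71, 8.81 and 9.11 in WT CCl4. These ranges overlap, and its difference of 0.65 in WT (adjusted p = 0.0939) and of 0.38 in Lcn2-/- (adjusted p = 0.429) did not pass, although the WT difference did without WT control 3 (0.89, adjusted p = 0.0141).

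The 2 canalicular genes that fell in WT were Abcg2 and Abcg8. Abcg2, which exports urate, porphyrins and many drugs, read 16.6, 16.28, 16.28 and 16.49 in WT control and 16.09, 15.98, 15.96, 15.82 and 16.14 in WT CCl4. The groups did not overlap, but the step was small, 1.33-fold (-0.41 ± 0.104, adjusted p = 0.014). In Lcn2-/- it read 16.05, 16.07 and 15.92 in control and 15.74, 15.56, 15.77 and 15.88 in CCl4, a difference of -0.28 ± 0.118 with adjusted p = 0.145. The Lcn2-/- controls thus stood at the level of the WT CCl4 arrays. The WT fall in Abcg2 did not pass without WT control 1 (-0.35, adjusted p = 0.061). Abcg8, a subunit of the sterol pump, read 10.33, 10.1, 9.81 and 10.94 in WT control and 9.66, 8.85, 9.52, 9.74 and 10.04 in WT CCl4, which overlap. Its fall of 1.66-fold (-0.73 ± 0.239, adjusted p = 0.0492) passed narrowly and was lost when any of 14 single arrays was left out, all but WT control 3 and WT CCl4 5, with differences of -0.8 to -0.52 and adjusted p up to 0.144. In Lcn2-/- the Abcg8 difference was -0.51 (adjusted p = 0.243). Its partner subunit Abcg5 read 15.6, 15.74, 15.37 and 15.87 in WT control and 15.58, 14.77, 15.23, 15.38 and 15.6 in WT CCl4, with differences of -0.33 in WT (adjusted p = 0.223) and -0.49 in Lcn2-/- (adjusted p = 0.134). Neither passed for Abcg5, and the sign was negative for both subunits of the pump in both genotypes.

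**Figure D2:**
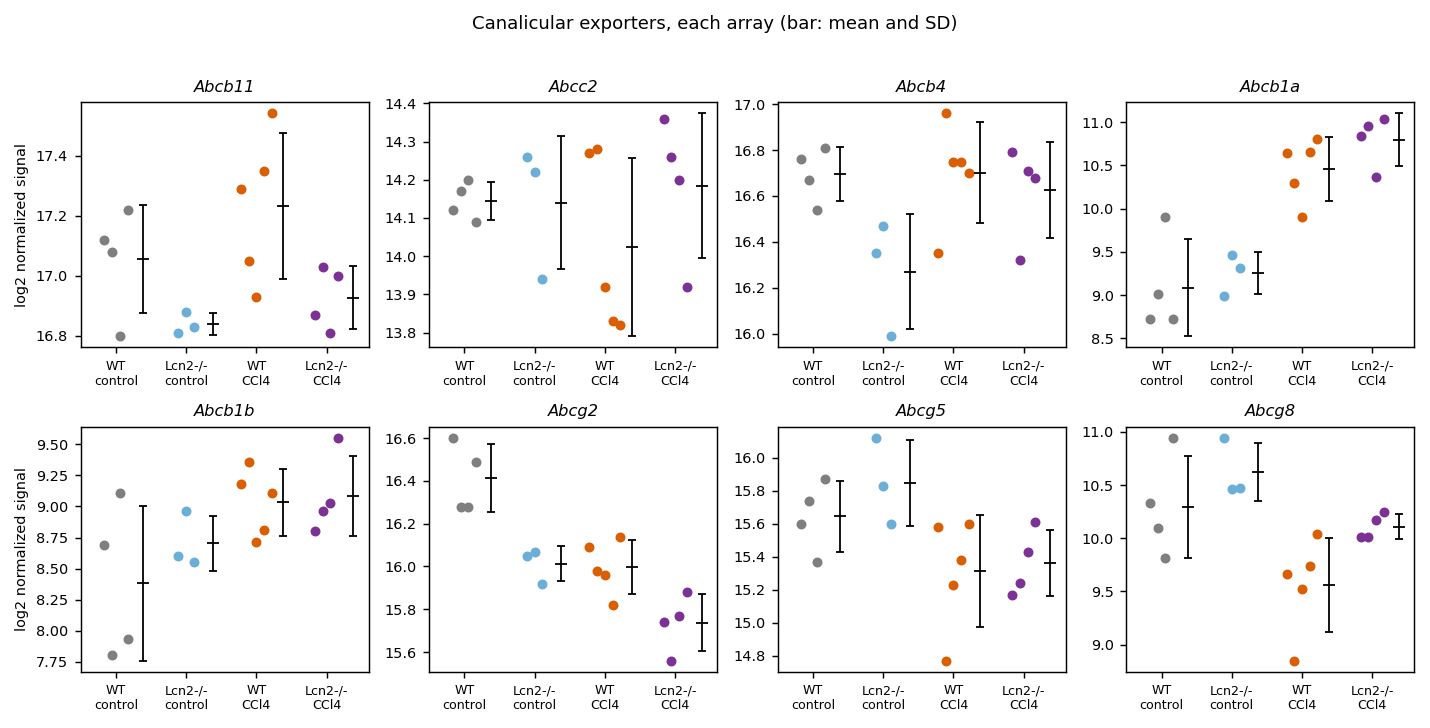
Levels of the 8 canalicular exporters on each array, as log2 normalized signal, by group, with the mean and SD of each group. Abcb1a is higher under CCl4 in both genotypes, Abcg2 steps down in WT, and the arrays of Abcb11, Abcc2 and Abcb4 overlap between treatments.

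The remaining canalicular genes include the main pump for bile salts. Abcb11, the bile salt export pump, read 17.12, 17.08, 16.8 and 17.22 in WT control and 17.29, 17.05, 16.93, 17.35 and 17.54 in WT CCl4. The arrays overlap, and its difference was 0.18 in WT (95% confidence interval -0.1 to 0.45, adjusted p = 0.379) and 0.09 in Lcn2-/- (-0.22 to 0.4). Abcc2, which pumps bilirubin glucuronide, read 14.12, 14.17, 14.2 and 14.09 in WT control and 14.27, 14.28, 13.92, 13.83 and 13.82 in WT CCl4. Its difference was -0.12 in WT (-0.4 to 0.15) and 0.05 in Lcn2-/- (-0.27 to 0.36), so a shift beyond 0.4 lay outside both intervals. Abcb4, the phosphatidylcholine flippase, differed by 0.01 in WT (-0.29 to 0.31). In Lcn2-/- it read 16.35, 16.47 and 15.99 in control and 16.79, 16.32, 16.71 and 16.68 in CCl4, a difference of 0.36 that did not pass (adjusted p = 0.169). Abcb1a, Abcb1b and Abcb4 are neighbours on chromosome 5, and of these only Abcb1a passed the test in either genotype.

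The basolateral exporters showed the steepest fall among the ABC genes. Of 6 tested, 2 rose and 1 fell in WT (50%, against 16.8% of all genes called), and 0 rose and 1 fell in Lcn2-/- (16.7%, against 12.2%). With so few genes these shares are a description. Abcc3, which returns glucuronides and bile salts to blood, read 15.68, 15.88, 15.64 and 15.72 in WT control and 14.3, 14.68, 14.4, 14.35 and 13.82 in WT CCl4. The lowest control array, at 15.64, lay well above the highest CCl4 array, at 14.68. The fall was 2.68-fold (-1.42 ± 0.212, adjusted p = 0.000369). The slide as a block rests on 1 WT CCl4 array and is set aside here. Under all the other alternative settings this call passed, as did other calls. In Lcn2-/- Abcc3 read 15, 15.58 and 14.94 in control and 14.67, 14.6, 14.55 and 13.71 in CCl4. Those groups did not overlap either, and the fall was 1.73-fold (-0.79 ± 0.241, adjusted p = 0.0458). It was lost when any of 11 single arrays was left out (all 4 WT control arrays, Lcn2-/- control 1 and 2, WT CCl4 1, 3 and 4, and Lcn2-/- CCl4 3 and 4), with differences of -0.88 to -0.57 and adjusted p of 0.0524 to 0.211. The Lcn2-/- call was also lost with no filter on dim probes and with only the arrays of the comparison in the fit. A block for the slide, or for the row of the array on it, lost it as well. The Lcn2-/- control mean was lower than the WT control mean by 0.56 (adjusted p = 0.531), and the Lcn2-/- response was smaller than the WT response by 0.63, a difference of responses that did not pass either (unadjusted p = 0.0686, adjusted p = 1, limma).

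Abcc4 and Abcc5, which export cyclic nucleotides and, for Abcc4, bile salts and prostaglandins, rose in WT. Abcc4 read 8.55, 8.39, 9.42 and 8.38 in WT control and 9.62, 9.57, 9.23, 9.19 and 9.75 in WT CCl4, with WT control 3 inside the CCl4 range. The rise was 1.72-fold (0.78 ± 0.24, adjusted p = 0.0373) and was lost without any 1 of WT control 1, 2 and 4 and WT CCl4 1, 2 and 5 (differences 0.68 to 0.76, adjusted p 0.0729 to 0.121). In Lcn2-/- Abcc4 read 8.3, 8.18 and 9.11 in control and 8.97, 9.56, 9.24 and 9.19 in CCl4, a difference of 0.71 with adjusted p = 0.109. Abcc5 read 8.99, 9.25, 10.11 and 9.07 in WT control and 10.07, 10.51, 10.17, 10.25 and 10.19 in WT CCl4. Again WT control 3 alone reached the CCl4 arrays, and the rise was 1.84-fold (0.88 ± 0.21, adjusted p = 0.0104). In Lcn2-/- it read 9.1, 9.14 and 9.6 in control and 9.62, 9.83, 9.95 and 10.23 in CCl4, a difference of 0.63 with adjusted p = 0.106. Abcc1, a pump for glutathione conjugates and leukotriene C4, differed by 0.95 in WT (adjusted p = 0.066) and 0.94 in Lcn2-/- (adjusted p = 0.125). Without WT control 3, Abcc1 passed in WT (1.37, adjusted p = 0.00116) and, through the shared spread, in Lcn2-/- (adjusted p = 0.0233), as did Abcc4 (adjusted p = 0.0487) and Abcc5 (adjusted p = 0.0247) in Lcn2-/-, and without Lcn2-/- control 3 Abcc4 passed there as well (1, adjusted p = 0.0298). Abcc6, which releases ATP from hepatocytes and is lost in pseudoxanthoma elasticum, differed by -0.11 and 0.03 in WT and Lcn2-/- in turn. The sixth gene, Abca1, is described below with the lipid exporters.

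**Figure D3:**
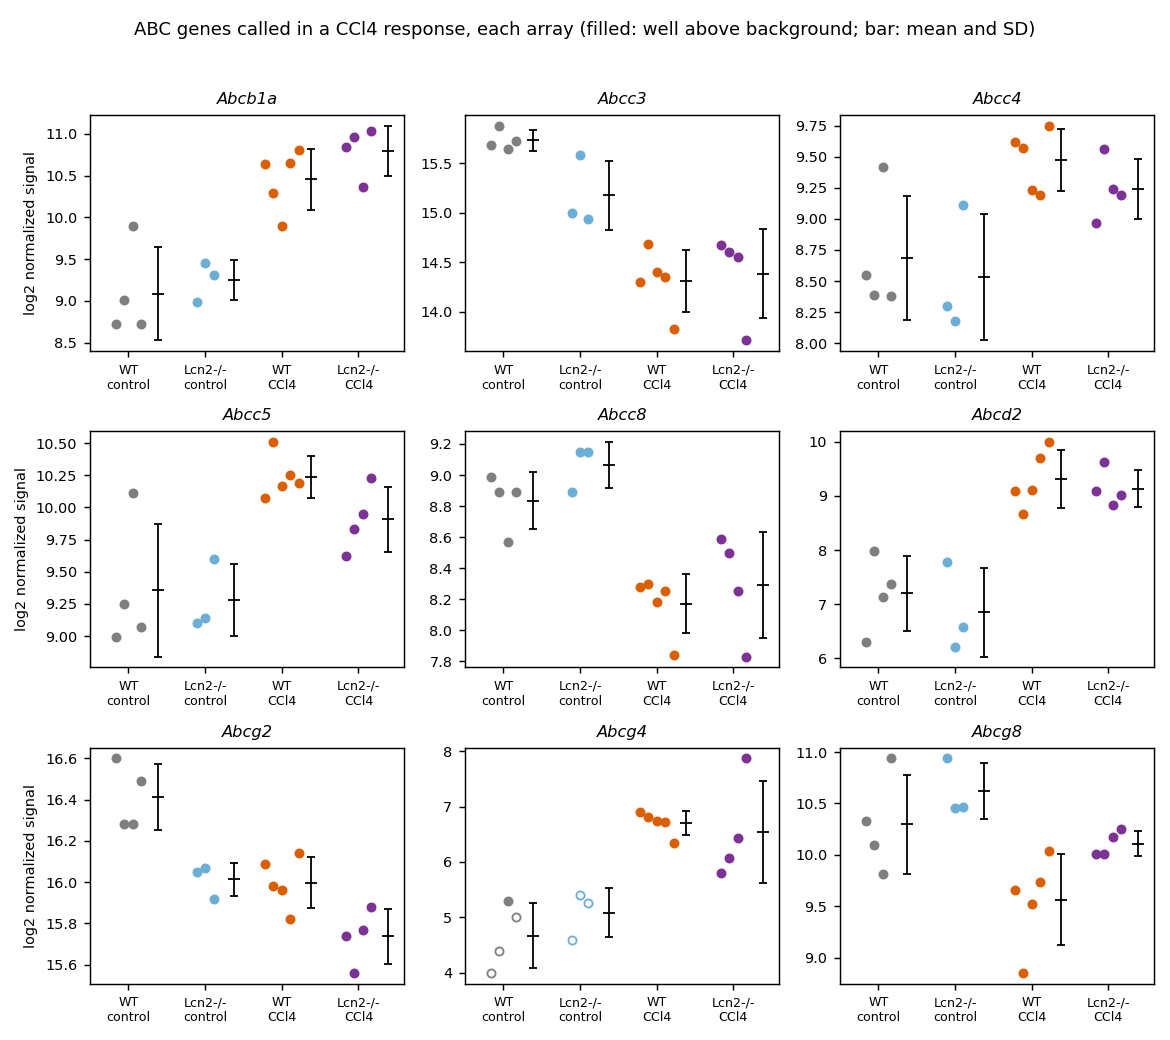
Levels of the 9 ABC genes called in the WT response, on each of the 16 arrays, as log2 normalized signal by group with mean and SD. In WT the CCl4 arrays of Abcb1a, Abcd2 and Abcg4 lie above all control arrays, those of Abcc3, Abcc8 and Abcg2 lie below, and WT control 3 stands among the CCl4 arrays for Abcc4 and Abcc5.

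A peroxisomal gene rose more than 4-fold in both genotypes. Abcd2, which imports very long chain and polyunsaturated acyl-CoA into peroxisomes, read 6.31, 7.98, 7.14 and 7.37 in WT control and 9.09, 8.66, 9.11, 9.71 and 10 in WT CCl4. It read 7.78, 6.21 and 6.57 in Lcn2-/- control and 9.09, 9.62, 8.83 and 9.01 in Lcn2-/- CCl4. No control array reached a CCl4 array. The rise was 4.33-fold in WT (2.11 ± 0.375, adjusted p = 0.00142) and 4.86-fold in Lcn2-/- (2.28 ± 0.427, adjusted p = 0.00307). Abcd3 and Abcd4 of the same subfamily did not pass. Abcd4, which moves cobalamin out of lysosomes, differed by -0.12 in WT and -0.27 in Lcn2-/-. Abcd3, the 70 kDa peroxisomal membrane protein, read 17.4, 17.36, 17.17 and 17.3 in WT control and 17.61, 17.52, 17.47, 17.44 and 17.47 in WT CCl4. The groups do not overlap, yet the difference was 0.19 (adjusted p = 0.168), and in Lcn2-/- it was 0.31 (adjusted p = 0.069), which passed without Lcn2-/- CCl4 4 (0.36, adjusted p = 0.04). The peroxisome import factors Pex3 and Pex19, which are no ABC genes, did not pass in either genotype.

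Among the exporters of lipid, 13 were listed, 11 were tested, and 1 rose in each genotype (9.09%, against 16.8% of all genes called in WT and 12.2% in Lcn2-/-). That gene was Abcg4, a sterol exporter known mainly from brain, which was kept only through its CCl4 arrays, so the count supports nothing about the list. It read 4, 4.39, 5.29 and 5.01 in WT control, of which WT control 3 alone was well above background, and 6.9, 6.81, 6.73, 6.72 and 6.34 in WT CCl4, all well above background. It read 4.59, 5.41 and 5.26 in Lcn2-/- control, none well above background, and 5.81, 6.08, 6.43 and 7.87 in Lcn2-/- CCl4, all well above. The probe was thus well above background on 1 of 7 control and 9 of 9 CCl4 arrays. The fit gave 2.03 in WT (adjusted p = 0.00165), but 3 of the 4 control values are not well above background and the filter kept the probe for its CCl4 signal, so no fold is given. The filter selected on the detection counts, so they describe the probe and test nothing. In Lcn2-/- the fitted difference was 1.46 ± 0.418 (adjusted p = 0.0345). No control value there is well above background and the same filter kept the probe, so no fold is given and the call supports nothing. The Lcn2-/- call was lost without any 1 of the 3 Lcn2-/- control arrays or of Lcn2-/- CCl4 3 and 4 (differences 1.02 to 1.63, adjusted p 0.0506 to 0.154). The second, overlapping Abcg4 probe was well above background on 0 of 7 control arrays, 5 of 5 WT CCl4 arrays and 3 of 4 Lcn2-/- CCl4 arrays, and no fold is given for it.

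The cholesterol exporters of the lipoprotein pathway did not pass on all arrays. Abca1, which hands cholesterol to apolipoprotein A1, read 14.28, 14.38, 14.16 and 14.17 in WT control and 14.34, 14.14, 14.44, 14.34 and 14.53 in WT CCl4. Its difference was 0.11 in WT (-0.11 to 0.34) and 0.03 in Lcn2-/- (-0.23 to 0.28). Abcg1, which loads cholesterol on mature HDL, read 11.09, 11.36, 12.68 and 11.45 in WT control and 11.9, 12.59, 12.25, 12.39 and 12.19 in WT CCl4, and 10.87, 11.09 and 12.49 in Lcn2-/- control and 11.97, 12.05, 12 and 12.07 in Lcn2-/- CCl4. In each genotype control 3 was the highest array of the 2 groups, and the other controls lay below all CCl4 arrays. The differences were 0.62 (adjusted p = 0.227) and 0.54 (adjusted p = 0.385), and the WT difference passed without WT control 3 (0.97, adjusted p = 0.029). Abca7, a phospholipid transporter linked to phagocytosis, differed by 0.44 in WT (adjusted p = 0.0513) and 0.25 in Lcn2-/-, and passed in WT without WT control 3 (0.55, adjusted p = 0.0155), WT CCl4 3 (0.51, adjusted p = 0.028) or Lcn2-/- CCl4 4 (0.44, adjusted p = 0.0465). Abca3, the phospholipid pump of lamellar bodies, differed by 0.22 and 0.17, and Abca2, found in myelin and neurons, by -0.17 and -0.04. The genes of the cluster on chromosome 11, Abca5, Abca6, Abca8a, Abca8b and Abca9, differed by -0.38 to 0.1 in WT and by -0.33 to 0.25 in Lcn2-/-, with none past the test. The other 2 listed genes, Abca12 and Abca13, were well above background on 0 arrays and were not tested, and Abca4, Abca14, Abca15, Abca16 and Abcb5, well above background on at most 2 arrays, were not tested either.

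The other C subfamily genes held 1 call. Abcc8, the sulfonylurea receptor SUR1 that forms ATP-sensitive potassium channels and moves no substrate, read 8.99, 8.89, 8.57 and 8.89 in WT control and 8.28, 8.3, 8.18, 8.25 and 7.84 in WT CCl4. It read 8.89, 9.15 and 9.15 in Lcn2-/- control and 8.59, 8.5, 8.25 and 7.83 in Lcn2-/- CCl4. The groups did not overlap in either genotype. The fall was 1.59-fold in WT (-0.67 ± 0.157, adjusted p = 0.0097) and 1.7-fold in Lcn2-/- (-0.77 ± 0.179, adjusted p = 0.0116), and the latter did not pass without Lcn2-/- control 2 (-0.72, adjusted p = 0.0561). The Lcn2-/- fall also did not pass with only the arrays of the comparison in the fit. A second Abcc8 probe, which shares 47 bases with the first, was well above background on 1 of 16 arrays and was not tested. Its mean level was 3.19, against 8.53 for the probe used, so the 2 overlapping probes disagree on the level of Abcc8. The reason was not tested, and the fall rests on the probe used alone. Abcc9, the receptor SUR2, differed by -0.19 and -0.14, Abcc10 by 0.03 and 0.09, and Abcc12 by -0.85 (adjusted p = 0.16, and -0.43 without both control 3 arrays) and -0.32. None of these passed.

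The organelle transporters described here and the members without transport function did not pass in either genotype. Abcb10, which serves haem synthesis in mitochondria, Abcb6, Abcb8 and the lysosomal peptide transporter Abcb9 differed by -0.17 to 0.37 in WT and by -0.13 to 0.41 in Lcn2-/-. Abce1, which recycles ribosomes, and Abcf1, Abcf2 and Abcf3 differed by -0.12 to 0.23 and by -0.09 to 0.37. Abcg3, a rodent gene, differed by 0.05 in WT and 0.91 in Lcn2-/- (adjusted p = 0.224), where it passed without Lcn2-/- control 3 (1.54, adjusted p = 0.0237). Its probe was well above background on 2 of 4 WT control and 1 of 3 Lcn2-/- control arrays. The size of these differences is therefore uncertain, and no call is drawn from them. Abca17 differed by -0.55 and 0. The ABC proteins that carry other symbols, Tap1, Tap2 and Cftr, gave 0 calls of 3 in both genotypes.

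Of the 50 members, 16 had more than 1 probe, and the probes did not always read alike. Abcc5 was read by 4 probes. The one used gave 0.88 in WT and 0.63 in Lcn2-/-, and the others gave 0.6 and 0.81, 1.47 and 1.36, and 0.36 and 0.03. All 4 were positive in both genotypes. With adjustment over all probes, those with 0.88 and 0.6 passed in WT (adjusted p = 0.0117 and 0.033). The one with 0.81 passed in Lcn2-/- (adjusted p = 0.0164), where the probe used did not (adjusted p = 0.114). The probe with 1.47 and 1.36 passed in both (adjusted p = 0.00225 and 0.0116). The last 2 probes were well above background on 11 and 10 of 16 arrays. The probe with 1.47 and 1.36 was so on 2 of 4 WT control and 0 of 3 Lcn2-/- control arrays. It was thus kept through its CCl4 arrays, the size of its differences is uncertain, and its passes support nothing about Abcc5. Abca17 had a second probe that was well above background on 4 of 5 WT CCl4 arrays and on 0 arrays of the other 3 groups, so it was kept through the group where it is high, and no fold is given for it. Abca5 had a second probe, well above background on all 16 arrays, with 0.52 in WT and 0.79 in Lcn2-/- (adjusted p = 0.164 and 0.0753), against -0.38 and -0.33 for the probe used. For Abca2 the probes gave -0.17 and 0.07 in WT and -0.04 and 0.18 in Lcn2-/-, and for Abcb8 -0.07 and 0.24 and -0.12 and 0.49. The probes of Abca5, Abca2 and Abcb8 thus differed in sign, and none of them passed.

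**Figure D4:**
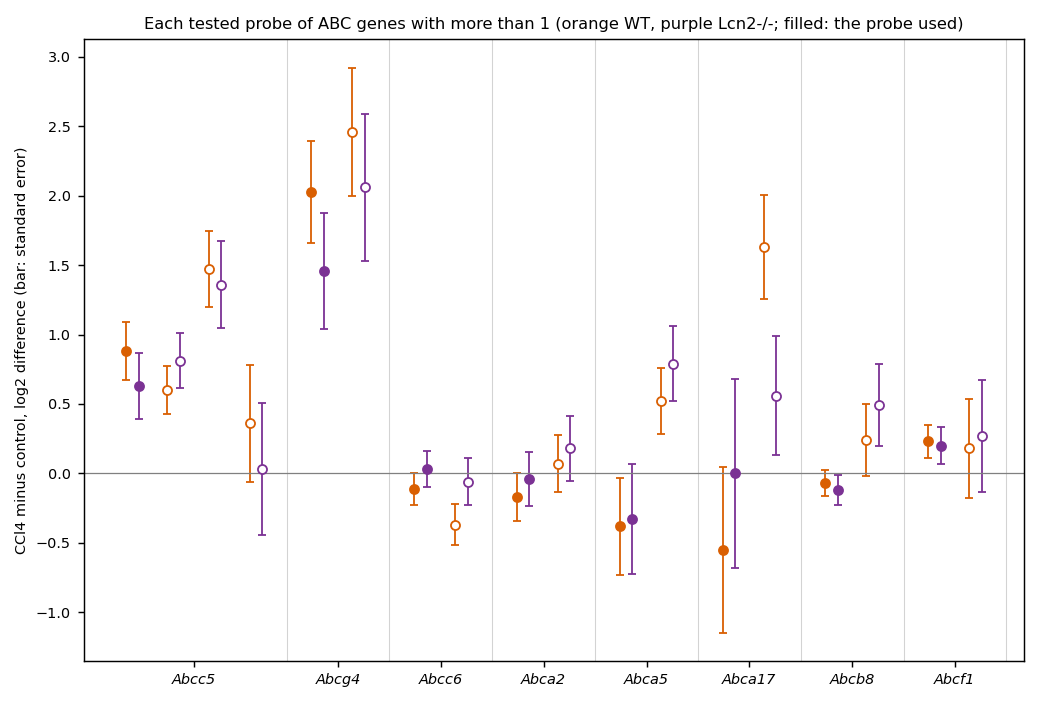
CCl4 response of each tested probe of 8 ABC genes that had more than 1, as the difference in log2 normalized signal, in WT and in Lcn2-/-, with the probe used for the gene marked. The Abcc5 probes all lie above 0 and the Abca5, Abca2 and Abcb8 probes lie on both sides, while the second probes of Abcg4 and Abca17 were not well above background on any control array, so their heights are not exact. The height of the Abcc5 probe at 1.47 and 1.36 is not exact either.

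The control 3 arrays bear on the basolateral and cholesterol exporters. WT control 3 read 8.47 for Abcc1, against 6.75, 6.68 and 6.94 on the other WT controls and 7.85 to 8.54 under CCl4. Lcn2-/- control 3 read 7.46, against 6.59 and 6.46 on the other controls and 7.48 to 8.16 under CCl4. On the same 2 arrays the 10 macrophage markers measured, of which 5 rose with CCl4 in each genotype and 1 fell in WT, had summed levels of 17.64 and 17.39, the top of the control ranges of 15.96 to 17.64 and 15.9 to 17.39, and above the CCl4 range in each genotype (16.79 to 17.37 and 16.56 to 17.15). The brightest markers carry such a sum, and the mean of the 10 log2 levels was 12.67 on WT control 3, inside the WT CCl4 range of 12.46 to 13.25, and 11.06 on Lcn2-/- control 3, below the Lcn2-/- CCl4 range of 11.99 to 12.95. The summed neutrophil markers, 15.38 and 15.69, were also the highest of their group there. WT control 3 had the highest stellate cell sum of the WT controls, 15.77, and Lcn2-/- control 3 the lowest of its group, 13.8. The cholangiocyte sum of WT control 3, 14.37, was the highest WT control value, but its mean log2 level, 8.74, was below that of WT control 1, 8.95. The part of these cells in the ABC differences was not tested. Without both control 3 arrays, left out with earlier results of these data known, 13 members passed in WT (9 higher) and 10 in Lcn2-/- (8 higher), while the share of all genes called rose to 22.4% and 15.1%. These counts hold Abcg4 in both genotypes and Abcg3 in Lcn2-/-, whose signal near background supports no call. Abcc1 then gave 1.37 in WT (adjusted p = 0.000228) and 1.25 in Lcn2-/- (adjusted p = 0.0025), and Abcg1 gave 0.97 (adjusted p = 0.000527) and 1.04 (adjusted p = 0.00177). Abcc4 gave 1 (adjusted p = 0.00361) and Abcc5 gave 0.79 (adjusted p = 0.00831) in Lcn2-/-, so both passed in either genotype.

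**Figure D5:**
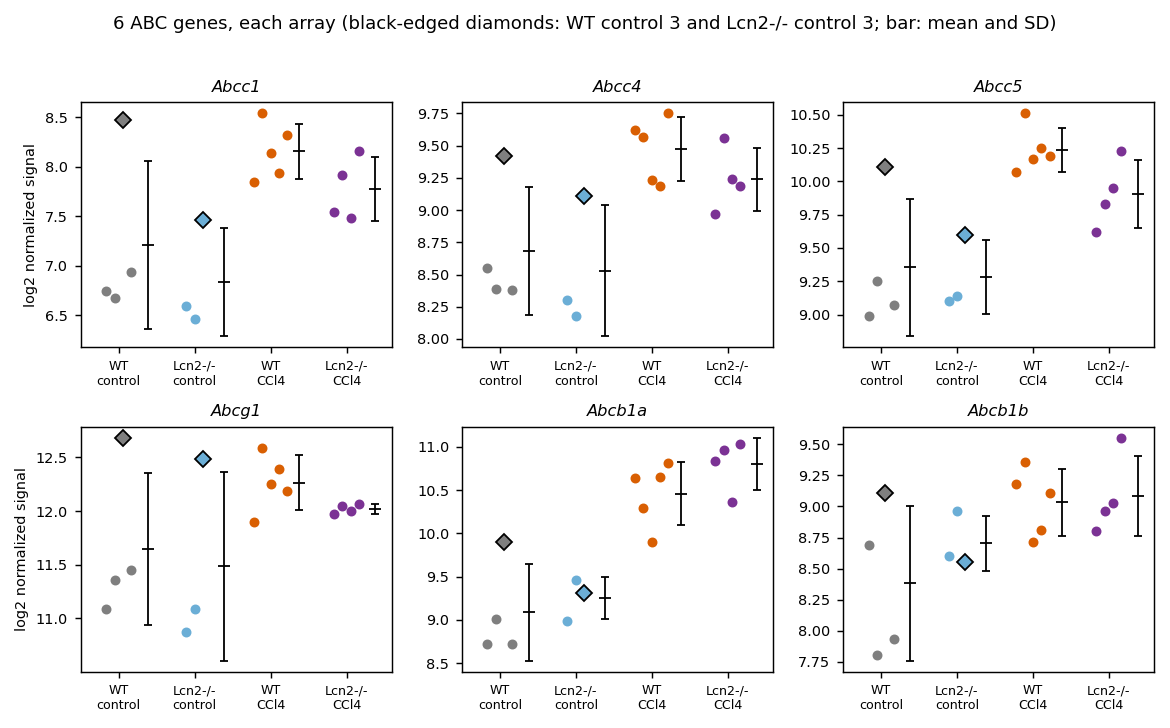
Levels of 6 ABC genes on each array, as log2 normalized signal by group, with the control 3 array of each genotype drawn as a black-edged diamond and the mean and SD of each group as a bar. WT control 3 is the highest WT control for all 6 genes, and for Abcg1 both control 3 arrays lie above all CCl4 arrays of their genotype.

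The loss of Lcn2 gave no call among the ABC genes. All 4 WT control arrays and 4 of 5 WT CCl4 arrays lay in 1 row of their slide and all Lcn2-/- arrays in the other row, so row and genotype cannot be told apart in controls. Under CCl4, 0 of 43 members differed between Lcn2-/- and WT, against 0.636% of all genes called, and the lowest adjusted p was 0.294 (limma). In controls, 0 of 43 differed, against 0.53% of all genes, and for the difference between the responses of the 2 genotypes, the interaction, 0 of 43 passed, against 0.0534%. At an unadjusted p under 0.05 there were 8, 3 and 0 members in turn, or 18.6%, 6.98% and 0% of those tested, against 13.7%, 8.3% and 3.33% of all genes. With so low a background, 0 calls among 43 genes is no result about the members. The lowest adjusted p in controls was that of Abcg2. Its 3 Lcn2-/- control arrays, 16.05, 16.07 and 15.92, all lay below the 4 WT control arrays, 16.28 to 16.6, a difference of -0.4 with adjusted p = 0.213. The exact two-sided permutation p over unpaired samples, 0.0286, is the smallest these group sizes allow. It does not use the replicate numbers, which were taken to pair the controls. Abcb4 differed by -0.43 in controls (adjusted p = 0.413). Of the 8 members with an unadjusted p under 0.05 under CCl4, 4 were lower in Lcn2-/-, Abca8b (-0.33), Abca7 (-0.31), Abcb11 (-0.3) and Abcg2 (-0.27), and 4 were higher, Abca17 (1.31), Abcg3 (0.97), Abcg8 (0.55) and Abcc10 (0.29), with adjusted p of 0.294 to 0.362. Of all 43 members 24 lay above 0 there. The second Abca17 probe ran the other way under CCl4, well above background on 4 of 5 WT and 0 of 4 Lcn2-/- arrays, and no fold is given for it. Weighting the arrays by their quality gave 2 calls in controls, with 5.21% of all genes called, Abcc3 (-0.62, adjusted p = 0.041) and Abcg2 (-0.43, adjusted p = 0.0158).

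The nuclear receptors and other transcription factors known to control ABC genes were set beside them. Of 11 tested, 1 rose and 2 fell in WT (27.3%, against 16.8% of all genes called), and 1 fell in Lcn2-/- (9.09%, against 12.2%). Such shares of few genes are a description. Nr1i3, the constitutive androstane receptor, which switches on drug-handling genes, fell by 1.33 in WT (adjusted p = 0.00119) and by 1.03 in Lcn2-/- (adjusted p = 0.0191) on the log2 scale. Nr5a2, the receptor LRH-1, fell by 0.55 in WT (adjusted p = 0.0198), and Nfe2l2, which encodes NRF2, the transcription factor of the antioxidant response and no receptor, rose by 0.68 in WT (adjusted p = 0.0389). The partners of the canalicular membrane gave 0 calls of 8 and the partners of HDL 0 calls of 9 in each genotype. Slc51b, a subunit of the basolateral organic solute transporter, differed by 1.09 in WT (adjusted p = 0.0502).

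Promoter windows from RefSeq (GRCm38.p6), 250 bases before to 50 bases after a start site, were at hand for 38 of the 50 members, 45 windows in all. They are given for a gene that rose in both genotypes, for one that rose in WT, and for the sterol pump, whose subunit genes lie head to head, 5′ to 3′ along the gene, with matches to the motifs searched in capitals.
Abcb1a: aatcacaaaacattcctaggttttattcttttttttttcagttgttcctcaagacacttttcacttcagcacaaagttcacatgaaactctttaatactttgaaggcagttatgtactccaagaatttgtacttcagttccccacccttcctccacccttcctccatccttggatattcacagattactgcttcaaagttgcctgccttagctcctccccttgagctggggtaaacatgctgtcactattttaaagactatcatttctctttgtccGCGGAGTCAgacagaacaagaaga
Abcc4: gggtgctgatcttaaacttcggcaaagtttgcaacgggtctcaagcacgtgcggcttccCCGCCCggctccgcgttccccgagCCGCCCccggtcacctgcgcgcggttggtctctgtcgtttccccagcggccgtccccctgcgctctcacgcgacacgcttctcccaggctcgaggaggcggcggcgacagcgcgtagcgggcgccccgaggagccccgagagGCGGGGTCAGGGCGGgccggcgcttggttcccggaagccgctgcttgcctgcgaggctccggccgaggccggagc
Abcg8: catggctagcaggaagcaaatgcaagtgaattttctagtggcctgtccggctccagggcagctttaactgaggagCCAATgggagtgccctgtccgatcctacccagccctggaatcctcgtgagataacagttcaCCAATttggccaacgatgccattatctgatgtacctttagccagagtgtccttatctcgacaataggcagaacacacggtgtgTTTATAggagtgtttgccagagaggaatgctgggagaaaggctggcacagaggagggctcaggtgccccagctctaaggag
These lie at chr5:8566841-8567140 (plus strand), chr14:118706170-118706469 (minus) and chr17:84682871-84683170 (plus). Abcc4 and Abcg8 each have a second RefSeq window that is not printed. The motifs were the TATA box TATAAA, the CCAAT box CCAAT, the GC box GGGCGG, the AP-1 site TGANTCA and the core of the antioxidant response element TGACNNNGC, on both strands. The Abcb1a window holds the antioxidant core on the opposite strand, 26 bases after the start, and the Abcc4 window holds it 25 bases before the start, on the opposite strand and directly before 1 of 3 GC boxes. The Abcg8 window holds 2 CCAAT boxes and a reversed TATA box, and 209 of its bases lie also in the window of Abcg5, which starts 110 bases away on the opposite strand. The antioxidant core is in 12.4% of all 32851 windows and in 15.6% of the members' windows, the GC box in 35.7% and 46.7%, the CCAAT box in 37.4% and 35.6%, the TATA box in 13.6% and 15.6%, and the AP-1 site in 7.81% and 0%. A match describes the letters alone.

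The slide limits all of the CCl4 responses. With the slide as a block the WT response rests on WT CCl4 1 against the 4 WT controls. The Lcn2-/- response then takes its slide difference from the same array. Calls kept or lost in that fit therefore decide nothing, and only sizes are given. On that slide WT CCl4 1 stood apart from the WT control mean by 1.55 for Abcb1a, 1.89 for Abcd2, 0.93 for Abcc4, -1.44 for Abcc3, -0.56 for Abcc8, -0.32 for Abcg2 and -0.64 for Abcg8, and it lay outside the range of the 4 controls for each of these. For Abcc5, also called in WT, it stood 0.71 above the mean, at 10.07, inside the control range of 8.99 to 10.11.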

How the data were processed

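Liver RNA of 16 samples was labelled with Cy3 and hybridised to SurePrint G3 mouse arrays of 1 colour. The authors scanned the arrays, and per the file headers each deposited file holds spot intensity on a linear scale from Feature Extraction 10.7.3.1, background-subtracted and detrended within the array but not normalized between arrays. A deposited table of log2 values, which set against the scanner values is log2 of background-subtracted median signal after quantile normalization by the authors, served as an alternative. All its columns belonged to the 16 samples.

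Control spots (3671 of 62976) and outlier spots were left out. Log2 processed signal was quantile normalized, as in the methods of the study, spots of a probe were averaged, and a probe was kept if it was well above background on 3 or more arrays (33014 probes, 24357 genes, 1 probe with the highest mean per gene). Accessions matched RefSeq for 49.8% of gene spots, which changed 0 ABC symbols. One model over the 4 groups was fitted with limma 3.58.1 in R 4.3.3, and Benjamini-Hochberg adjustment ran over all genes of a contrast, with adjusted p under 0.05 as the call. It was tested on simulated data. Exact permutation tests ran over samples. Sequences and figures were made in Python 3.11.15 with matplotlib 3.10.9. The median SD within groups was 0.231 for ABC genes and 0.299 for all genes, and the number of arrays limits the precision.

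Members and lists were chosen with earlier results of these data known. Named with values are the tested members of the role lists and any other member called in 1 of the 5 contrasts, with the remaining members by range. Some members are counted but not reported by name. Groups and replicate numbers came from the sample titles. Same-numbered samples were checked for pairing through their deviations from the group means. Correlations passed 0.1 in 3 of 3 pairs of controls across genotypes, 1 of 4 of CCl4 arrays, 1 of 4 of WT control with WT CCl4 and 0 of 3 in Lcn2-/-, so the numbers were taken to pair the controls of both genotypes and no other samples. Alternatives were 75th percentile scaling, normexp with an offset of 50, the log2 table, other filters on dim probes, the mean of all probes, outliers kept, array weights, blocks for replicate number and slide, only the arrays of a comparison, both control 3 arrays left out, and each array left out in turn. The row of the array on its slide, as a block, was added after seeing the data.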

Additional observations from a re-analysis of the deposited data

Results flagged for a closer look

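Of 129 groups of 4 or 5 arrays, 10 held an array whose gap to its neighbour took up an unusually large share of the group's range (Dixon's test at 95%). Chance gives about 1 in 20 groups, or 6.45 here. WT control 3 was such an array for Abcc1, at 8.47 against 6.68 to 6.94 on the other WT controls (share of the range 0.854), and for Abcc4, at 9.42 against 8.38 to 8.55 (0.838). Both values lay inside the WT CCl4 range. The same array was lowest for Abca6, at 12.43 against 12.79 to 12.8 (0.995). WT control 1 was highest for Abcb8, at 13.89 against 13.77 to 13.79 (0.845).

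WT CCl4 5 stood apart for 4 genes. It was lowest for Abcc8, at 7.84 against 8.18 to 8.3 on the other WT CCl4 arrays (0.727), for Abca2, at 10.84 against 11.16 to 11.22 (0.863), and for Abca5, at 8.3 against 9.24 to 9.54 (0.759). It was highest for Abcb6, at 13.88 against 13.62 to 13.68 (0.762). Among the Lcn2-/- CCl4 arrays, replicate 4 was lowest for Abcc3, at 13.71 against 14.55 to 14.67 (0.876), and replicate 1 was lowest for Abcc12, at 4.89, where it was not well above background, against 5.83 to 5.98 (0.857).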

How the results depend on the processing

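Of the 14 calls in single genes, 30 alternatives gave 418 values, of which 350 kept the call, 68 lost it and 0 changed direction. Abcg8 in WT was lost most often (20 of 30), then Abcc3 in Lcn2-/- (15 of 30), Abcc4 in WT (11 of 30) and Abcg4 in Lcn2-/- (10 of 29). The count of members called in WT was 9. It was 7 to 13 under the settings, other than the slide as a block, that kept a replicate set whole or left out both control 3 arrays. In Lcn2-/-, where 5 were called, the count was 17 with array weights, 10 without both control 3 arrays and 2 with only the arrays of the comparison. With array weights 2 members were called between genotypes in controls. The cause was not tested for array weights. The slide block, 1 of the 30 alternatives, compares 1 WT CCl4 array with 4 controls, so calls kept or lost under it decide nothing. Leaving out 1 array gave 6 to 13 calls in WT, 2 to 7 in Lcn2-/- and 0 to 0 for the other comparisons. With the replicate number as a block, 8 members were called in WT, 6 in Lcn2-/- and 0 in each other comparison, and Abcc4 in WT (0.72, adjusted p = 0.0752) was the 1 call lost. The block changed no call between genotypes in controls, where the numbers pair the samples. Scaling to the 75th percentile moved the median of all genes to -0.16 in WT and -0.14 in Lcn2-/- and left 9 and 4 calls, with Abcg4 in Lcn2-/- lost (1.19, adjusted p = 0.0554). The slide as a random block (consensus correlation -0.0186) gave 10 and 5, and the row of the array on the slide as a block, added after seeing the data, 7 and 4. Signal near background limits Abcg4, Abcg3 and Abcc12.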
